A study of Homo sapiens with 3 samples.

Results

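To locate PHF13 on the chromatin of pancreatic cancer cells, ChIP-seq, the sequencing of DNA recovered with an antibody from crosslinked chromatin, was performed in PANC-1, an established cell line from a human pancreatic ductal carcinoma. The series holds 3 libraries of wildtype, untreated cells, 1 per group: a PHF13 antibody, an EZH2 antibody and input chromatin. All cells were crosslinked with EGS, which links proteins to each other, and then with paraformaldehyde and formaldehyde, and a rabbit polyclonal antibody made for the study was used for PHF13. The lists hold no expression values and no measure of antibody recovery, so neither the cell line nor the antibody labels could be checked against markers. The members described here are all 19039 peaks that MACS2 called for the PHF13 library over the input, of the 40678 peaks in both deposited lists. The other 21639 peaks belong to the EZH2 list, which serves as a contrast. A peak is a stretch of DNA recovered more often with the antibody than in the local background, and its summit is the position of highest coverage.

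PHF13 (also named SPOC1) carries a PHD finger that binds histone H3 trimethylated or dimethylated at lysine 4 (H3K4me3 and H3K4me2), marks found at active and poised promoters, and it acts as a chromatin co-regulator. EZH2 is the catalytic subunit of Polycomb repressive complex 2 (PRC2), which methylates lysine 27 of histone H3 at repressed, often CpG-rich promoters. Both proteins can meet at poised promoters, which carry both marks.

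Each PHF13 summit was assigned to the nearest transcription start among the 146567 annotated starts of 20163 protein-coding genes on GRCh37 (hg19). The nearest gene is a label for the place and need not be the gene that the site acts on: 41.5% of the summits lay in the body of their assigned gene, 3.68% lay only in the body of another protein-coding gene, and 54.8% lay in none. Because repeated sequences cannot be placed with certainty, peaks were also divided by copy number. Peaks whose median 24-base word, over the 100 bp at the summit, had no other copy in the genome are named single-copy, which held for 12492 PHF13 peaks, and multi-copy otherwise, which held for 6541; 6 peaks could not be classed. Each antibody has 1 library, and without replicates the spread between samples is unknown. No p-value is given, and every interval below covers counting error only.

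The following sequences, from GRCh37, show what the summits of the main classes looked like. Each is centred on a summit and written on the plus strand, with capitals marking the AP-1 letters TGACTCA, the TEAD letters ACATTCC or the E-box letters CACGTG on either strand. AP-1 is the FOS and JUN family of dimers, TEAD proteins carry the Hippo pathway co-activators YAP and TAZ to DNA, and E-boxes bind MYC, USF and MiT/TFE proteins. The first set holds the strongest summits of genes with many single-copy peaks and of TGFB2, the second a CpG-rich and an alternative start, and the third satellite-like peaks of the genes that led the count of all peaks; by its 24-base words the ZNF722 summit was scored single-copy.
AHR, chr7:17274244-17274344: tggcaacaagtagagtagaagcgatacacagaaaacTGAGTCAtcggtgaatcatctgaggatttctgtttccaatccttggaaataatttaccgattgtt
TGFB2, chr1:218550770-218550870: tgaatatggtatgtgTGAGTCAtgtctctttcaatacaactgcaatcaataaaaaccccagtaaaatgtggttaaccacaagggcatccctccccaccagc
EFNA5, chr5:107205564-107205664: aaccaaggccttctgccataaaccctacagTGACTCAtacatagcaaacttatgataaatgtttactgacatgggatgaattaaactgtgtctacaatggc
ETS1, chr11:128080626-128080726: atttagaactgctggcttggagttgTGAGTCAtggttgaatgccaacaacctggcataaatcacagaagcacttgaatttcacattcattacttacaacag
MARCKS, chr6:113682327-113682427: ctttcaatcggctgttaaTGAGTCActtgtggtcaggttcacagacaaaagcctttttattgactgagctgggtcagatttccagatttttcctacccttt
TNS3, chr7:47644647-47644747: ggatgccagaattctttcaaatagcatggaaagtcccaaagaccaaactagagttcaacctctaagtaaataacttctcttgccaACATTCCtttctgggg
LAMP1, chr13:113951342-113951442: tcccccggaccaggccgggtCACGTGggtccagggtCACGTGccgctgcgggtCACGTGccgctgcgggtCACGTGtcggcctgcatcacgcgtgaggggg
MYT1L, chr2:1865585-1865685: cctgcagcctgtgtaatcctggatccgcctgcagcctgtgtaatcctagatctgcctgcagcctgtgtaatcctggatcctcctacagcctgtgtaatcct
RP11-685N3.1, chr2:92269466-92269566: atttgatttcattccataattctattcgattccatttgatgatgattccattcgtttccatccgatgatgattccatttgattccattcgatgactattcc
ZNF722, chr7:61794551-61794651: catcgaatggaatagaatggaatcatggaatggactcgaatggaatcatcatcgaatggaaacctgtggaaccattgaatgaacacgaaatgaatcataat

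The AHR, TGFB2, EFNA5, ETS1 and MARCKS summits each held 1 AP-1 site, and the TNS3 summit held 1 TEAD site. The LAMP1 summit held 4 copies of CACGTG, whereas the MYT1L summit was a tandem repeat. The sequences nearest to RP11-685N3.1 and ZNF722 held 6 and 4 copies of the 5-base word GGAAT or its complement, the unit of human pericentromeric satellite DNA.

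PHF13 peaks were small. The median peak rose 3.41-fold over its local background and had 21 fragments at the summit, in a range from 13 to 288, against a median background of 5.13 fragments. Only 5797 of the 19039 peaks had a −log10 q of at least 5, where q is the p-value of the peak adjusted by MACS2 over the genome.

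Most PHF13 summits lay more than 5 kb from a gene start. Within 1 kb of a start were 2607 summits (13.7%, 95% Wilson interval 13.2 to 14.2), and within 5 kb were 4412 (23.2%, 22.6 to 23.8). More than 100 kb away were 5543 summits (29.1%, 28.5 to 29.8), and the median distance was 28100 bp. The share of the genome at these distances was not computed, so these shares do not tell whether summits prefer or avoid starts. EZH2 summits lay nearer, with 29.7% within 5 kb and a median distance of 21045 bp. The difference in the share within 5 kb, PHF13 minus EZH2, was −6.54 percentage points (95% Newcombe interval −7.39 to −5.68), and for the share beyond 100 kb it was 7.19 points (6.34 to 8.04).

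With single-copy peaks the near-start difference was larger and the distant one slightly smaller. Of the single-copy peaks, 28.9% of PHF13 and 37.8% of EZH2 summits lay within 5 kb of a start, a difference of −8.88 points (−9.99 to −7.76), and the difference beyond 100 kb was 6.82 points (5.89 to 7.76). The single-copy share of the PHF13 peaks was 89.5% within 1 kb of a start and was lowest beyond 100 kb.

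**Figure D1:**
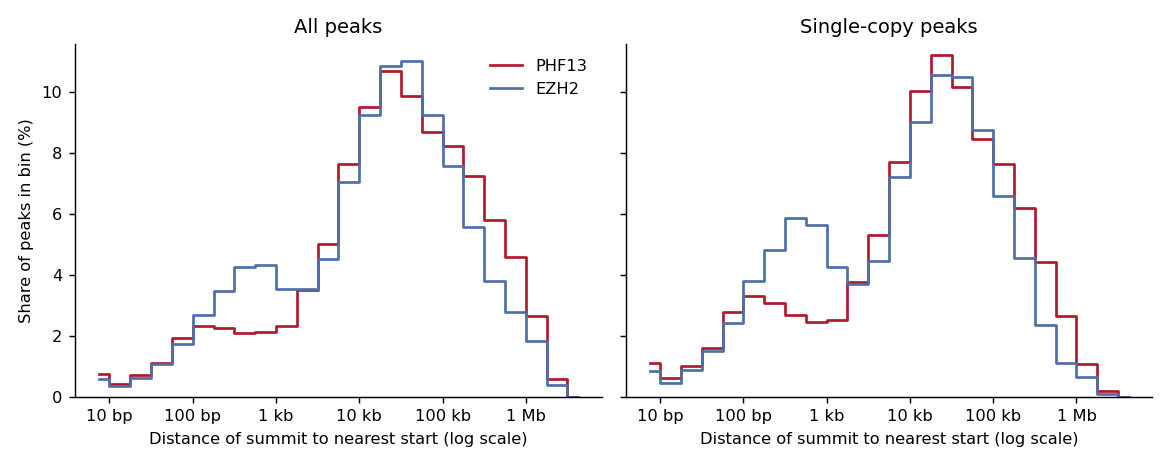
Share of PHF13 (red) and EZH2 (blue) peaks, in percent, against the distance of the summit to the nearest protein-coding start, on a log scale in equal log steps, for all peaks (left) and single-copy peaks (right). EZH2 has a near-start maximum between 316 bp and 1 kb, that of PHF13 is lower and lies nearer, at 100 to 178 bp, and PHF13 exceeds EZH2 beyond 100 kb.

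Distance separated the base composition of PHF13 peaks but not their median height. From within 1 kb to beyond 100 kb, the median GC content of single-copy peaks went from 63.8% to 43.2%, and the ratio of observed to expected CpG from 0.772 to 0.161. Over the same classes the median fold lay between 3.36 and 3.43 and the median width between 183 and 194 bp. EZH2 differed here: its single-copy peaks within 1 kb had a median width of 504.5 bp and a median −log10 q of 6.80, against 194 bp and 3.57 for PHF13. The methods name broad calling for EZH2, but the deposited EZH2 list is a narrow-peak table like that of PHF13.

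Peaks at the 5′ ends of genes and peaks at other annotated starts were not alike. Of the single-copy PHF13 peaks, 1519 (12.2%) had a summit within 1 kb of the 5′ end of the gene, its outermost start, and 814 (6.52%) lay only near another start inside or upstream of the longest transcript. The 5′ end peaks were CpG-rich, with a median CpG ratio of 0.825, and 3.42% of them held AP-1 letters within 100 bp of the summit. The peaks at other starts had a median CpG ratio of 0.399, and 14.6% held AP-1 letters, close to the 17.2% of peaks beyond 1 kb. The highest −log10 q was 21.0 at 5′ ends, 39.2 at other starts and 277 beyond 1 kb. A −log10 q of 10 or more was reached by 2.70% of the PHF13 peaks at 5′ ends, 6.14% at other starts and 7.65% beyond 1 kb. For EZH2 the order was reversed, with 40.7%, 29.2% and 4.63%.

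The strongest start-proximal peaks fell mostly at internal or alternative starts. Among the 12 genes whose single-copy peak within 1 kb of a start had the highest −log10 q, only LAMP1, a lysosomal membrane glycoprotein, had it at the 5′ end of the gene, 162 bp upstream, with a 7.33-fold enrichment, 42 fragments and a CpG ratio of 1.08. The peaks of the other genes lay 3650 to 469801 bp from the 5′ end. They were MYT1L (a neuronal zinc finger factor; 11.1-fold), LRIG3 (a leucine-rich transmembrane protein; 8.46-fold), TXNRD2 (the mitochondrial thioredoxin reductase; 8.56-fold), CUL3 (a ubiquitin ligase scaffold; 7.21-fold), MUC3A (an intestinal mucin; 7.11-fold), LTBP1 (which binds latent TGF-β; 6.96-fold), EHD1 (an endocytic recycling ATPase; 6.24-fold), ALDH1A2 (a retinoic acid synthesis enzyme; 6.22-fold), HDAC9 (a class IIa histone deacetylase; 6.19-fold), WFDC3 (5.99-fold) and LSP1 (an actin-binding protein of leukocytes; 5.74-fold). Of the 12 peaks, 6 held AP-1 letters within 100 bp of the summit, and those of MYT1L and MUC3A also overlapped an EZH2 peak.

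Peaks were unevenly spread over genes. At least 1 PHF13 peak was assigned to 7507 of the 20163 protein-coding genes (37.2%), and 3932 of these had exactly 1. At least 3 peaks went to 2019 genes (10.0%), which held 63.0% of all peaks, and at least 10 went to 201 genes, which held 21.3%. With single-copy peaks only, 6228 genes (30.9%) had a peak, 1347 (6.68%) had at least 3, 508 had at least 5 and 5 had at least 20. A summit within 5 kb of a start, whether or not that start was the nearest, was found for 4193 genes (20.8%). The same was found in the EZH2 list for 4724 genes (23.4%), and for 1058 genes (5.25%) in both.

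**Figure D2:**
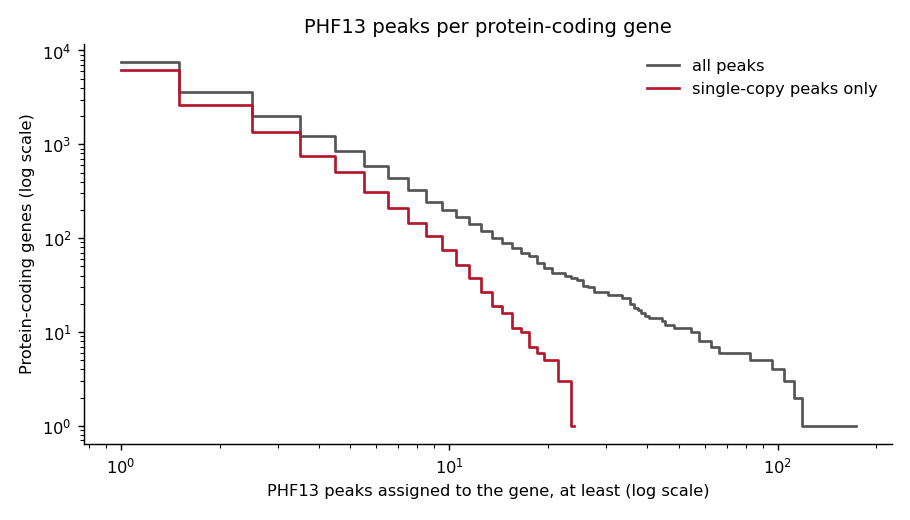
Number of protein-coding genes (y, log scale) with at least the given number of assigned PHF13 peaks (x, log scale), for all peaks (grey) and single-copy peaks (red). The curve for all peaks runs out to 173 peaks in 1 gene, whereas the single-copy curve ends at 24.

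Of the 15 genes with the most peaks of either class, 12 had most of their peaks within 1 Mb of a gap of at least 1 Mb in the assembly, and 3, RP11-195B21.3, FRG1 and FOXD4L6, had none there. RP11-685N3.1, a short predicted gene on chromosome 2, had 173 peaks, of which 8 were single-copy and all 173 lay within 1 Mb of such a gap. ZNF722, a zinc finger gene, had 118 peaks (9 single-copy), TPTE, a testis phosphatase homologue on chromosome 21, had 112 (9), PPIAL4G, a cyclophilin-like gene, had 104 (1) and CWH43 had 96 (1). ZNF33B (82), FAM72B (66), SPIN4 (57), RP11-195B21.3 (57), FRG1 (48), FOXD4L6 (45), SHCBP1 (44) and GOLGA6L6 (40) followed, with 0 single-copy peaks for FOXD4L6 and SHCBP1; 2 further genes of the leading 15 lie on chromosome Y. The EZH2 list placed similar numbers at the same genes, with 171 peaks at RP11-685N3.1, 94 at ZNF722, 93 at TPTE, 97 at PPIAL4G and 106 at CWH43.

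The highest peaks were shared with EZH2 in the same way. All 261 multi-copy PHF13 peaks with a −log10 q of at least 50 overlapped an EZH2 peak, as did 34 of the 35 single-copy peaks above that limit, a limit set after the values were seen. Of all single-copy PHF13 peaks, 2.67% overlapped an EZH2 peak, and of the single-copy EZH2 peaks 2.32% overlapped a PHF13 peak. The exception was the highest single-copy peak of the list, 23.5-fold over background with 287 fragments, at chr15:68132328-68132683, in an intron of a lncRNA gene 14657 bp downstream of a start of SKOR1, a SMAD-binding transcriptional co-repressor. It held no AP-1 letters and overlapped no EZH2 peak.

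Counts rose with the length of genome nearest to a gene. For each gene this length was the sum of sequenced bases closer to its starts than to those of any other protein-coding gene. From the shortest to the longest of 5 equal classes of this length, the share with a PHF13 peak went from 10.9% to 70.9%, but single-copy peaks per Mb went from 9.88 to 3.69, around 4.37 over the genome. The share with a summit within 5 kb of a start went only from 17.7% to 25.5%. Many of the counts below are therefore given with peaks per Mb.

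**Figure D3:**
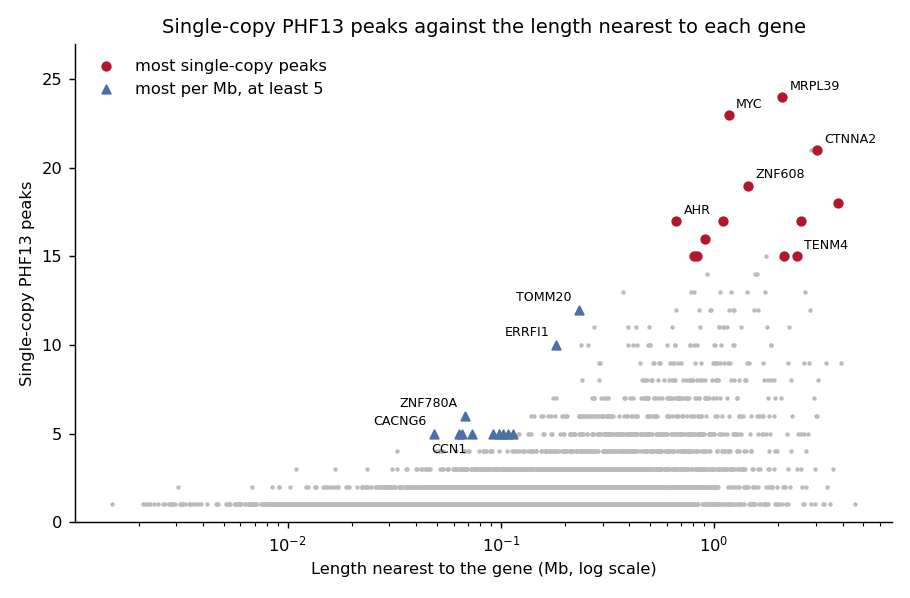
Single-copy PHF13 peaks per gene (y) against the length of genome nearest to the gene in Mb (x, log scale), 1 grey point per gene. Red circles mark the described genes among those with the most single-copy peaks and blue triangles those with the most per Mb among genes with at least 5; MYC and AHR reach counts like those of genes with far longer surroundings, and CCN1 and CACNG6 hold 5 in under 0.1 Mb. Chromosome Y is left out.

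The 15 genes with the most single-copy peaks had from 15 to 24 of them. MRPL39, a mitochondrial ribosomal protein, led with 24 peaks in 2.09 Mb; its single-copy peaks began 236993 bp from the start, only 3 had a −log10 q of at least 5, and EZH2 had 27 single-copy peaks there. CTNNA2 (21 peaks in 3.03 Mb), NCAM2 (18 in 3.79 Mb), EFNA5 (17 in 2.54 Mb) and TENM4 (15 in 2.45 Mb) encode neuronal adhesion or guidance proteins, and their densities of 4.75 to 6.93 peaks per Mb compare with 4.37 over the genome. With only the 5′ end of each gene as its start, CTNNA2 had 2 peaks in place of 21. UQCRFS1, the Rieske protein of the respiratory chain, had 15 peaks in 2.13 Mb, the highest of them with 288 fragments beside the centromeric gap. MYC, AHR, TNS3, ETS1, ZNF608, FIGN and MARCKS had 13.2 to 25.6 peaks per Mb. Of the 15 genes, 1 lies on chromosome Y and 1 is not described.

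MYC, a transcription factor that drives growth, had 23 single-copy peaks in 1.17 Mb, or 19.7 per Mb, where EZH2 had 1. None lay near its start: the closest was 37140 bp away, 15 lay in the body of the lncRNA gene PVT1, and the outermost was 918588 bp downstream. Their fold ran from 2.49 to 6.50, with 15 to 57 fragments at the summit. The highest peak lay 437957 bp downstream of a MYC start and was 1 of only 2 above 4-fold. AP-1 letters were present at 7 of the 23, the highest among them.

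AHR, the receptor for dioxin and other aromatic ligands, had the most peaks per Mb of the genes described here from these 15. Its 17 single-copy peaks stood in 0.664 Mb, or 25.6 per Mb, and 11 of them had a −log10 q of at least 5. The fold ran from 2.54 to 7.43, and 7 of the 17 exceeded 4-fold. The highest, chr7:17274169-17274540, had 64 fragments and the AP-1 site printed above. A further peak lay 137 bp from a start, in sequence with 74.0% GC and a CpG ratio of 0.877, where no AP-1 letters were present. EZH2 had 7 single-copy peaks in the same length. The count for AHR depended on which starts were used: it was 6 with only the 5′ end of each gene and 8 with starts of coding transcripts only.

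TNS3, a focal adhesion protein, had 17 single-copy peaks in 1.10 Mb, 6 of them in its own body and 1 at 119 bp from a start. Its highest, with a 5.12-fold enrichment and 47 fragments, lay 22541 bp upstream of its nearest start and held the TEAD site printed above. ETS1, a transcription factor of invasive cells, had 16 in 0.903 Mb, 15 of them downstream of its body, with a highest fold of 4.01. FIGN, a microtubule-severing enzyme, had 15 peaks where EZH2 had 1, and MARCKS, an actin-binding kinase substrate, had 15 where EZH2 had 5.

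**Figure D4:**
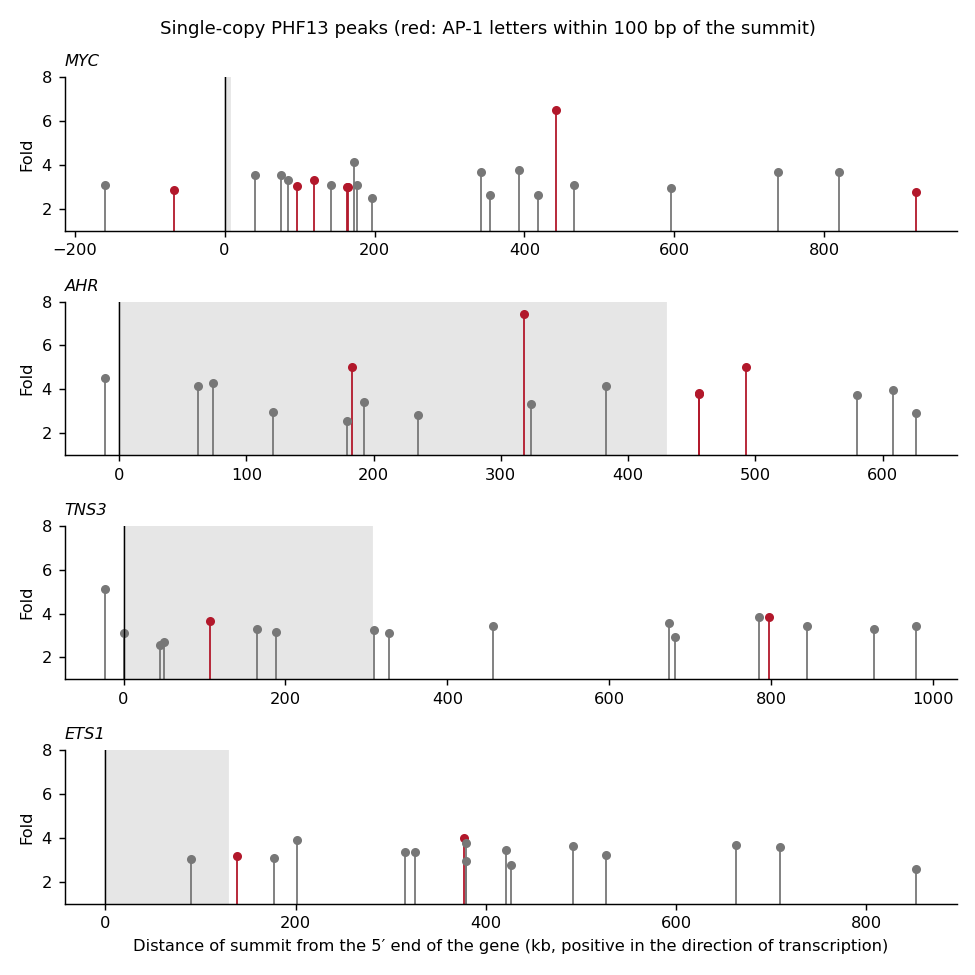
Single-copy PHF13 peaks nearest to MYC, AHR, TNS3 and ETS1, drawn by the distance of the summit from the 5′ end of the gene in kb (x, positive in the direction of transcription) and the fold enrichment (y, from 1). Grey shading is the gene body, and red marks peaks with AP-1 letters within 100 bp of the summit; the highest MYC peak (6.50-fold) and the highest AHR peak (7.43-fold) are red and lie far from the 5′ end.

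Genes with at least 5 single-copy peaks were also ranked by peaks per Mb, a ranking made after the values were seen. CCN1 (a matrix protein induced by YAP) had 5 peaks in 0.0654 Mb, all downstream of its start, the highest 5.23-fold. BCL10 (an adaptor of NF-κB signalling) had 5, all with a −log10 q of at least 5 and 4 with AP-1 letters. ERRFI1 (a feedback inhibitor of EGFR) had 10 in 0.182 Mb, TOMM20 (a mitochondrial import receptor) had 12 in 0.231 Mb, and SEMA4B, CAPN2, NR2E3, ELF3 and MYPN had 5 each. EZH2 had 0 single-copy peaks at each of these genes, as at 67.3% of all protein-coding genes. The single-copy TOMM20 peaks lay 129127 to 246557 bp downstream of its nearest start, and none lay in its body. The closest BCL10 peak lay 13001 bp upstream of a start.

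The 3 remaining leaders, CACNG6, ZNF780A and ACTN4, lie on chromosome 19. The median background at the summit was above the 5.01 fragments of all single-copy PHF13 peaks at all 12 leaders: it was 54.3 at ZNF780A, 29.0 at ACTN4, 15.2 at CCN1, 11.4 at ELF3, between these at BCL10, 9.81 at CACNG6, and 5.82 or more at the others. For the chromosome 19 genes the highest folds were 3.21 (CACNG6), 1.97 (ZNF780A) and 3.53 (ACTN4). The ribosomal protein gene RPS16, on the same chromosome, had a background of 74.8 fragments and a fold of 1.89. The part of this background in the counts was not tested.

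Of the 508 genes with at least 5 single-copy PHF13 peaks, 273 had a single-copy summit within 5 kb of a start, against 17.9% of all genes. EZH2 had no single-copy peak at 76 of the 508 and more than PHF13 at another 76, against 67.3% and 23.2% of all genes. The 508 genes were picked for many peaks and have long surroundings, with a median of 0.617 Mb against 0.0547 Mb over all genes, so these shares are a description.

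Gene classes were compared by the share of members with a PHF13 summit within 5 kb of a start, against 20.8% of all genes, and by the same share in the EZH2 list, against 23.4%. Of the 36 lists, 21 had a larger share of members with an assigned peak than the 37.2% of all genes. Members that are neighbours can share a peak, so these shares are counts of genes and not of sites. A start is any annotated start of the gene, and it can lie far from the 5′ end. A summit near a start can be weak, and the −log10 q of several is given below. The limit that the methods give equals a −log10 q of 3.

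**Figure D5:**
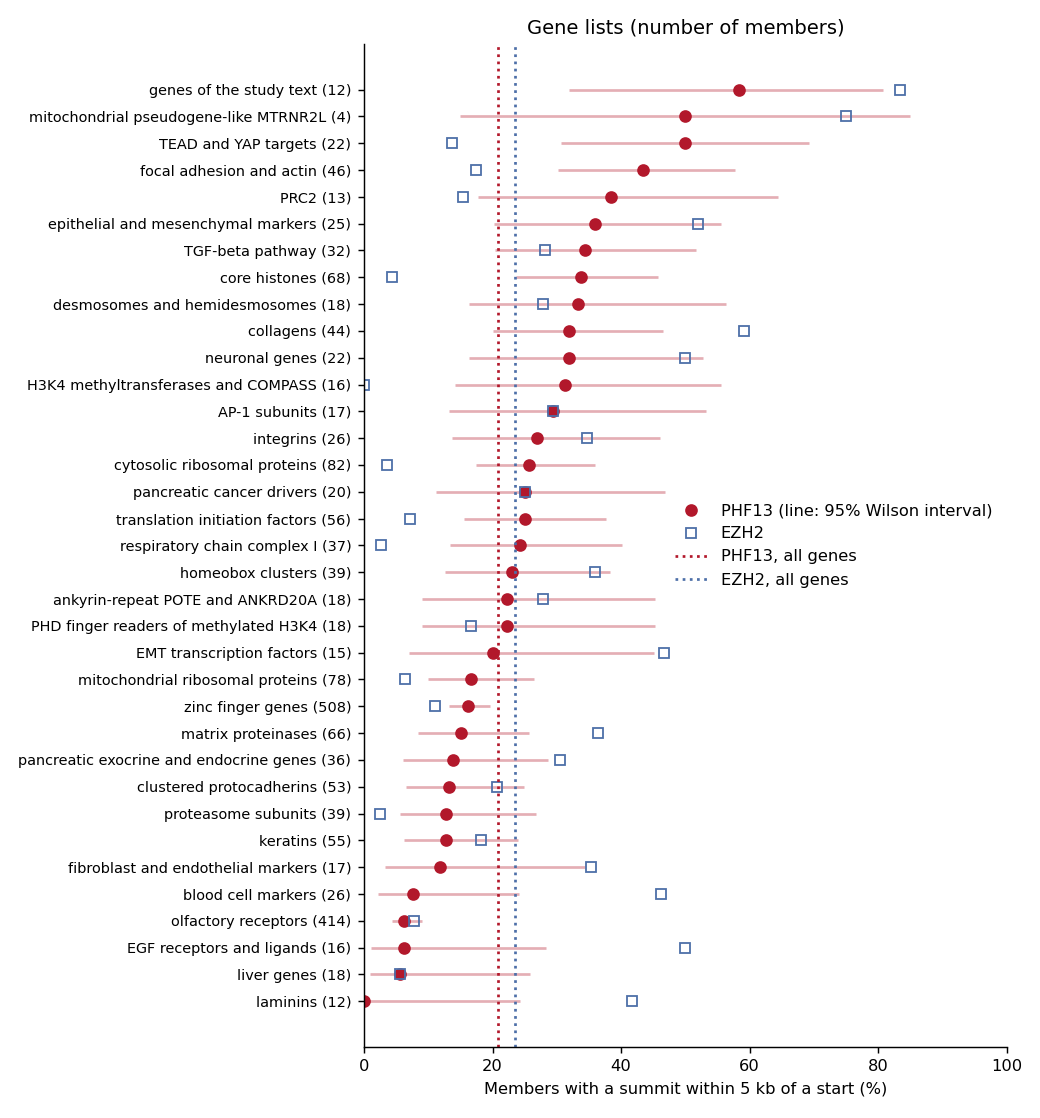
Share of members of each described gene list, in percent, with a summit within 5 kb of a start, for PHF13 (red circles, lines for 95% Wilson intervals) and EZH2 (open blue squares); dotted lines mark the shares over all protein-coding genes, 20.8% and 23.4%, and numbers in parentheses are members. TEAD and YAP targets and focal adhesion genes lie right of the PHF13 line with EZH2 to their left. Histone and cytosolic ribosomal protein genes do so too, while EGF family, blood and laminin genes show the opposite order.

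TEAD and YAP targets, the read-out of Hippo signalling, had the highest share for PHF13 of the lists with over 12 members. A summit lay within 5 kb of a start for 11 of 22 (95% interval 30.7 to 69.3%) in the PHF13 list and for 3 (13.6%) in the EZH2 list. At least 3 PHF13 peaks went to 10 of the 22, against 10.0% of all genes. Their single-copy density was 14.1 peaks per Mb for PHF13 and 5.41 for EZH2, against 4.37 and 5.14 over the genome. CRIM1, a membrane protein that binds BMPs, had 14 single-copy peaks with the closest 59 bp from a start. AMOTL2 had its closest peak 24 bp from a start, YAP1 itself 12 bp and CCN2, a matrix protein, 143 bp. Their −log10 q was 6.92, 1.93 and 3.78. WWTR1, which encodes TAZ, had its closest peak 38 bp from an internal start, 195616 bp from the 5′ end of the gene. That peak had a −log10 q of 2.13. ANKRD1, a muscle ankyrin protein, had its strongest peak, 5.96-fold, 288 bp upstream of a start. Of the 65 single-copy peaks of the list, 7 (10.8%, 5.32 to 20.6) held TEAD letters against 5.52% of all single-copy peaks, and the interval contains the background.

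Focal adhesion and actin genes followed with 20 of 46 (43.5%, 30.2 to 57.8), against 8 (17.4%) for EZH2. Of the 46, 17 had PHF13 alone, against 15.5% of all genes. Beside TNS3, they included the kinase PTK2 (FAK) with 5 single-copy peaks, LPP with 7, the actin bundler LIMA1 with 4, and MYH9, CTTN, VASP and ZYX with a summit within 1 kb of a start. Their closest summits had a −log10 q of 5.72 at MYH9, 3.33 at CTTN, 2.48 at VASP and 2.38 at ZYX. The MYH9 summit lay 58380 bp from the 5′ end of the gene. AP-1 letters were present at 26 of the 82 single-copy peaks of this list (31.7%, 22.7 to 42.4), above the 15.4% of all single-copy peaks, and TEAD letters at 12 (14.6%, 8.57 to 23.9).

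Integrins, the matrix receptors, had a PHF13 peak in 18 of 26 members, with 10.7 single-copy peaks per Mb, but a near-start summit in 7, against 9 for EZH2. The β chains ITGB1, ITGB5 and ITGB2 and the α chain ITGAE had summits 33, 27, 26 and 5 bp from a start, of which those of ITGB5 and ITGB2 were multi-copy. A single-copy ITGB5 peak 362 bp upstream of a start reached 5.57-fold. From the 5′ end of the gene, the ITGAE summit lay 77346 bp, the ITGB2 summit 3090 bp and the single-copy ITGB5 peak 22337 bp. None of 12 laminins had a near-start PHF13 summit, which leaves a share of up to 24.2% by the Wilson interval, while EZH2 had 5; LAMC1 did have a 6.75-fold peak in an intron, 37166 bp from its 5′ end. Collagens had 14 of 44 against 26 for EZH2, and matrix proteinases 10 of 66 against 24. Desmosome genes had 6 of 18 against 5 and keratins 7 of 55 against 10. At the epithelial keratins KRT7 and KRT80 the highest folds were 4.63 and 5.71.

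TGF-β pathway genes had a near-start summit in 11 of 32 (34.4%, 20.4 to 51.7), against 9 for EZH2. At least 3 peaks went to 12 of the 32, against 10.0% of all genes. The list had 8.47 single-copy peaks per Mb, against 4.37 over the genome. The ligand TGFB2 had 10 single-copy peaks and no near-start summit. Its highest, with 83 fragments, an 8.45-fold enrichment and the AP-1 site printed above, lay 30440 bp downstream of a start in an intron of TGFB2. The receptor TGFBR2 had 10 single-copy peaks, the closest 113 bp from a start, where EZH2 had 0. The signal transducer SMAD3 had 7, the closest 34 bp away, and the inhibitors SMAD7 and SKIL had 1 each, 15 and 232 bp away. Those SMAD3 and SMAD7 summits lay at internal starts, 61919 and 8143 bp from the 5′ ends of the genes. The closest summits had a −log10 q of 2.90 at TGFBR2, 7.54 at SMAD3, 2.81 at SMAD7 and 7.85 at SKIL. LTBP1 (6), ACVR2A (5), INHBA (5) and TGFBI (3) completed the leading members. AP-1 letters were present at 22 of 73 single-copy peaks of the pathway (30.1%, 20.8 to 41.4).

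The EGF family showed peaks at a distance from its starts, at 4.77 single-copy peaks per Mb against 4.37 over the genome. Of 16 receptors, ligands and regulators 1, the ligand HBEGF, had a near-start summit for PHF13 and 8 had it for EZH2. EGFR had 11 single-copy PHF13 peaks, the closest at 13110 bp and the highest 6.61-fold at 51489 bp upstream, and ERRFI1 had 10 with the closest at 10593 bp; EZH2 had 0 peaks at both. The transcription factors of epithelial to mesenchymal transition (EMT) had a peak in 11 of 15 members but a near-start summit in 3, against 7 for EZH2. Their surroundings are long, with a median of 236 kb against 54.7 kb over all genes. The single-copy density there was 4.39 peaks per Mb, close to the genome value. SOX4 had 8 single-copy peaks, SOX9 had 7 and TWIST2 had 4, and the highest fold was 6.63, at TWIST2. Epithelial and mesenchymal markers had 9 of 25 against 13 for EZH2, with VIM 152 bp and FN1 678 bp from the closest summit. That FN1 summit lay 61062 bp from the 5′ end of the gene. The −log10 q was 2.12 at the VIM summit and 3.48 at the FN1 summit.

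AP-1 subunits had a near-start summit in 5 of 17 for each antibody. JUND, FOSB, JUNB and MAFK had PHF13 summits 532, 295, 440 and 208 bp from a start, and JUN had its strongest peak, 7.54-fold, 101416 bp upstream. The MAFK summit lay 6577 bp from the 5′ end of the gene. These near-start summits had a −log10 q of 2.38 at JUND, 8.18 at FOSB, 1.67 at JUNB and 9.92 at MAFK. Of the 20 genes recurrently altered in pancreatic cancer, 5 had near-start summits for each antibody. PHF13 summits lay 113 bp from TGFBR2, 27 bp from MAP2K4 and 10 bp from KMT2D starts. The ATM summit lay 105 bp from an internal start, 79873 bp from the 5′ end of the gene. In −log10 q these summits reached 2.90 at TGFBR2, 4.43 at MAP2K4, 5.31 at KMT2D and 2.64 at ATM.

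Genes of basic cell functions had near-start summits more often in the PHF13 list. Core histones had a PHF13 summit within 5 kb in 23 of 68 members (33.8%, 23.7 to 45.7), from 19 distinct summits, and an EZH2 summit in 3. Cytosolic ribosomal proteins had 21 of 82 (25.6%, 17.4 to 36.0) against 3, translation initiation factors 14 of 56 (25.0%) against 4, and complex I of the respiratory chain 9 of 37 (24.3%) against 1. Mitochondrial ribosomal proteins (13 of 78 against 5) and proteasome subunits (5 of 39 against 1) had lower PHF13 shares than all genes and still lower EZH2 shares. H2BC3 had a 4.82-fold peak 137 bp and RPS12 a 4.32-fold peak 97 bp from a start. EIF3B had a multi-copy peak, 5.14-fold, 85 bp from an internal start, with the summit 23653 bp from the 5′ end of the gene. Other members had their closest peak far away, at 116416 bp for RPL22L1 and 217695 bp for RPS24. Of the single-copy peaks of these 6 lists within 1 kb of a start, none held AP-1 letters. Each list had only 5 to 15 such peaks. AP-1 letters were in 7.33% of all single-copy PHF13 peaks within 1 kb, so few would be found at that share.

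Lists of chromatin regulators of the same axis had near-start PHF13 shares whose intervals contain the 20.8% of all genes. H3K4 methyltransferases and their COMPASS partners had 5 of 16 with a PHF13 summit (14.2 to 55.6%) and 0 with an EZH2 summit. KMT2A had 5.46-fold at 97 bp, and KMT2D, PAXIP1 and SETD1A lay 10, 133 and 90 bp from theirs. PRC2 genes had 5 of 13 (17.7 to 64.5%) against 2, including EED at 102 bp, MTF2 at 43 bp and JARID2 at 240 bp. The EED summit lay 43439 bp from the 5′ end of the gene. The MTF2 peak was weak, with 14 fragments and a −log10 q of 1.70. Other readers of methylated H3K4 had 4 of 18 against 3, with ING1 149 bp and SPIN1 239 bp from the closest summit.

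Marker genes of other cell types had near-start summits more often in the EZH2 list, apart from liver genes. Blood cell markers had a PHF13 near-start summit in 2 of 26 (7.69%, 2.14 to 24.1) and an EZH2 summit in 12, fibroblast and endothelial markers in 2 of 17 against 6, exocrine and endocrine pancreas genes in 5 of 36 against 11, and liver genes in 1 of 18 for each. Neuronal genes had 7 of 22 against 11. PTPRC, the CD45 antigen of leukocytes, was an exception in number, with 10 single-copy PHF13 peaks, the highest 7.75-fold, none within 14860 bp of a start. Peaks measure binding and not expression, so these lists do not tell which genes PANC-1 cells express.

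Among large gene clusters, olfactory receptors had near-start summits in 26 of 414 (6.28%, 4.32 to 9.04) and clustered protocadherins in 7 of 53, from 5 distinct summits. C2H2 zinc finger genes had 82 of 508 (16.1%, 13.2 to 19.6) against 56 for EZH2, and 58 of them had a summit within 1 kb; ZNF217, an oncogene amplified in epithelial tumours, had 6 single-copy peaks with a highest fold of 7.11. HOX genes had 9 of 39, from 8 distinct summits, against 14 for EZH2. At the POTE and ANKRD20A family, a repeated family near centromeres, 13 of 18 genes had a peak but 4 had a single-copy peak. MTRNR2L genes, nuclear copies of mitochondrial DNA, had a PHF13 near-start summit in 2 of 4 and an EZH2 summit in 3.

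Of 12 genes named in the study's text, 11 had at least 1 PHF13 peak and 7 had a near-start summit, against 10 for EZH2; these genes were picked by the study, partly on these libraries, so their share is no independent evidence. ITGA2 had a 4.13-fold peak 1385 bp upstream of a start, PAPLN a 5.27-fold peak 904 bp upstream of an internal start with AP-1 letters, and PCDHB8 a multi-copy peak with 24 fragments 224 bp downstream. SNAI1 had a single peak, 2.87-fold, 37023 bp downstream of its nearest start. SOX9 had 8 peaks between 696609 bp upstream and 286633 bp downstream, the highest 5.43-fold at 30743 bp downstream.

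The letters under the summits differed with distance from a start. Among single-copy PHF13 peaks, AP-1 letters were present within 100 bp of the summit in 15.4% and in 3.37% of windows of the same length 1000 bp to each side, a ratio of 4.57. TEAD letters (5.52% against 2.90%), the FOX letters TGTTTAC (5.53% against 2.88%) and the RUNX letters TGTGGTT (5.65% against 3.59%) were also more frequent at summits, and the GATA letters AGATAA were rarer at summits than beside them (9.40% against 13.1%). Beyond 5 kb from a start AP-1 letters were in 17.2%, at a ratio of 4.74. Within 1 kb they were in 7.33%, and other letters were more frequent than in the flanks: the ETS letters CCGGAAGT in 1.76% against 0.214% of the flanks, the SP/KLF letters GGGCGGGG in 11.2% against 3.64%, and CACGTG in 5.96% against 2.61%.

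EZH2 summits within 1 kb shared the SP/KLF letters (13.1%) but not the others, with ETS letters in 0.181%, CACGTG in 3.32% and AP-1 letters in 1.22%, below its own flanks at 2.62%. The share of peaks with AP-1 letters was 14.8 to 17.2% (95% interval) at genes with at least 5 single-copy PHF13 peaks and 14.4 to 15.9% at other genes, intervals that overlap. Multi-copy PHF13 peaks had them in 3.10%. A match to letters is a description of sequence and does not show that a factor was bound.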

How the data were processed

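ChIP-seq libraries of PANC-1 cells were made from 1 PHF13, 1 EZH2 and 1 input sample, and the 2 deposited peak lists were analysed; the input entered only as the control in peak calling. According to the methods and the submitters' processing notes, the authors trimmed reads with Trim Galore 0.4.1, aligned them to hg19 with Bowtie2 2.4.1, took out duplicate reads (Picard) and ran MACS2 2.2.7.1 on each antibody library. The deposited lists hold a display score, the fold enrichment at the summit, which is a ratio of ChIP pileup to local background, and the p-value and q-value on the −log10 scale. Per the file values, both deposited lists are narrow-peak tables and the loosest −log10 q of the PHF13 list is 1.30, looser than the limit the methods give; the lists were used as deposited. Total reads are unknown from the lists, so depth is given as fragments at the summit, solved from fold and p (relative error within 0.0001), with a background floor of 4.23 fragments in the PHF13 list.

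Each summit was assigned to the closest transcript start of a protein-coding gene in GENCODE release 44, mapped to GRCh37, with python 3.11.15, numpy 2.4.6 and pandas 2.3.3; 71 summits had a tie. Copy number was read from every 24-mer of the genome. The assignment was checked on simulated starts and summits. GC and CpG ratios cover 500 bp at the summit, and motif letters were sought on both strands. The members, gene lists and motifs were chosen with earlier results of these data known. Genes were named by rule: the 15 with the most peaks, the 15 with the most single-copy peaks, the 12 with the strongest single-copy peak within 1 kb of a start, and of each list up to 4 members with the most peaks and those with a summit within 1 kb. LAMC1, JUN and other list members outside the rule were named after their values were seen, as were the densest genes and SKOR1. Of the list symbols, 3 were not matched. Intervals are 95% Wilson for shares and Newcombe for differences. A gene among those with the most single-copy peaks and a gene list, both still counted in the totals, are not reported here.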

Additional observations from a re-analysis of the deposited data

How the results depend on the processing

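The direction of the contrast with EZH2 held under each alternative tried. The difference in the share of summits within 5 kb, −6.54 percentage points as reported, was −9.98 with peaks of −log10 q of at least 3, −21.1 with at least 5, −8.88 with single-copy peaks, −7.83 with starts of coding transcripts only and −5.38 with a limit of 1 kb. The PHF13 share itself, 23.2%, became 21.4% with −log10 q of at least 5, 28.9% with single-copy peaks, 18.4% with coding transcripts only, 13.9% with 1 start per gene and 13.7% with a limit of 1 kb. Counts of genes depended on the peak threshold: the 2019 genes with at least 3 peaks became 1079 at a −log10 q of at least 3 and 377 at 5, and the 7507 genes with a peak became 2953 at 5. The ratio of AP-1 letters at summits to flanks, 3.77 over all peaks, was 4.57 for single-copy peaks, 5.30 in a 100 bp window and 7.36 at a −log10 q of at least 5. Of the 15 genes with the most single-copy peaks, 11 remained among the leading 17 at a −log10 q of at least 3 and 4 among the leading 16 at 5, 11 among the leading 19 with 1 start per gene and 14 among the leading 16 with coding transcripts only; with 1 start per gene AHR went from 17 to 6 and CTNNA2 from 21 to 2, and with coding transcripts AHR went to 8. Between 20 and 22 lists exceeded all genes under every alternative. No leave-one-out or paired analysis was possible because each group has 1 library, and at a median of 21 fragments a peak's height is imprecise.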
